A study of Mus musculus with 24 samples.

Results

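The genes described are 43 genes of fatty acid oxidation and ketone metabolism in mouse kidney, of 35460 genes in the deposited tables. They were taken by symbol from a list given for this work, with no measured value in the rule, and the reads of each gene's Ensembl transcripts were summed. The list was chosen with earlier results of these data known, so its counts beside those of all genes describe it and do not test it. The list was divided into 17 mitochondrial genes, 11 peroxisomal genes, 3 genes of ketone body use, 10 genes of fatty acid uptake, activation and storage, and 2 regulators. All 43 passed the filter on low counts in every fit.

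Kidney RNA was sequenced in 24 libraries from 2 experiments. The knockout experiment held 4 mice on chow, whose genotype is not given, 6 wild-type mice without Cre and 6 mice labelled ENPP1 knockout, both of the last groups on adenine diet, which injures the kidney tubule, for 14 days. The knockout mice carried floxed ENPP1 (fl/fl) and CAG-ERCre, a tamoxifen-inducible Cre driven by CAG, a promoter active in most tissues, so deletion was not directed to 1 kidney cell type. Between the adenine groups of this experiment, Cre was present only in the knockout group, and whether the wild-type mice were given tamoxifen is not stated. ENPP1 is an ectoenzyme that cleaves extracellular nucleotides. The antibody experiment held 4 mice given control IgG and 4 given a monoclonal antibody to human ENPP1 (hENPP1), each at 50 mg/kg into the peritoneum 2 times per week during 14 days of adenine. The labels give no strain, age or sex, and do not say whether the antibody and IgG groups had a human ENPP1 gene. No label gives a cage, litter or donor, so the p-values measure the spread between these libraries.

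Fatty acids enter a cell through carriers such as CD36, are joined to coenzyme A, and reach the mitochondrial matrix through the carnitine shuttle. There each turn of β-oxidation runs through a dehydrogenase, a hydratase, another dehydrogenase and a thiolase, and releases acetyl coenzyme A, while peroxisomes shorten very long and branched chains by a parallel set of enzymes. Ketone bodies made from acetyl coenzyme A in liver are oxidised in other tissues, kidney included. The proximal tubule, the segment that reabsorbs most of the filtrate, is known to draw much of its energy from fatty acids, and PPARα, a nuclear receptor that is activated by fatty acids, is known to drive many of these genes.

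PPARα binds as a pair with RXR to a direct repeat of the site AGGTCA with 1 base between the copies. Because the members include many known PPARα targets, the RefSeq promoter windows (build GRCm38.p6, 250 bases before to 50 after a gene's start) were searched on both strands for that direct repeat (AGGTCA, any base, AGGTCA) and for the single site AGGTCA, which the direct repeat contains. A window was found for 38 members, which had 42 windows. The direct repeat was in 0 of the 42 windows, and in 13 (0.0396%) of the 32851 windows of all genes. An exact match is so rare that 0 of 42 does not set the members apart. Inexact copies and sites outside the windows were not searched. The single site was in 8 of the 42 windows (19.1%), each of a different member, and in 16.3% of all windows. These letters describe the windows only. The matches of 6 members are shown with the 60 bases around them, all before the gene's start and read on the gene's strand, because these members are taken up below: Slc27a2, Cpt1a, Acadvl, Scp2, Acsm1 and Plin2. Capitals mark the single site, written AGGTCA where it lies on the gene's strand and TGACCT where it lies on the other. The Acadm and Cd36 matches lay too close to the edge of the window for such a stretch.
Slc27a2 (chr2:126552777-126552836, plus strand): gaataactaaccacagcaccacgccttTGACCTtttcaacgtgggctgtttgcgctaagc
Cpt1a (chr19:3323180-3323239, plus strand): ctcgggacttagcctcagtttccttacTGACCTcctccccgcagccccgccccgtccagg
Acadvl (chr11:70015483-70015542, minus strand): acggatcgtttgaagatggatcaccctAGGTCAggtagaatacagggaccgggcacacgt
Scp2 (chr4:108118624-108118683, minus strand): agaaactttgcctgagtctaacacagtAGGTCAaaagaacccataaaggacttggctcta
Acsm1 (chr7:119617678-119617737, plus strand): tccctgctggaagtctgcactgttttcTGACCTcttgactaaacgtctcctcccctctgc
Plin2 (chr4:86670245-86670304, minus strand): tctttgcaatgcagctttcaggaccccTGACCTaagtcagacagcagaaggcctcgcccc
The first matched base lay 220 bases before the start in Slc27a2, 94 in Cpt1a, 87 in Acadvl, 109 in Scp2, 107 in Acsm1 and 218 in Plin2.

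The libraries held 21164187 to 28350038 estimated reads in the knockout experiment and 44080791 to 50813749 in the antibody experiment. Levels are given as CPM, the reads of a gene scaled to a common library size after TMM, scaled separately in each experiment, so a level is set only against others of its own experiment. Enpp1 did not separate the knockout label: it was at 21.5 to 24.7 CPM in the 6 libraries labelled knockout and 20.9 to 24.9 CPM in the 6 wild-type adenine libraries (log2 change 0.05, edgeR adjusted p = 0.47), against 49.9 to 55.8 CPM on chow. The transcript counts do not show whether the floxed exons were removed, so "labelled knockout" is used throughout. Enpp1 was at 7.22 to 8.86 CPM with IgG and 2.62 to 17.4 CPM with antibody. The defining markers of the labelled tissue were present: all 15 proximal tubule markers were detected in each group, and their sum was 10886 to 11238 CPM on chow.

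The wild-type libraries on adenine had lower RNA of 42 of the 43 members than the chow libraries, and 0 members were higher. Of all genes tested, 40.9% were called lower and 44.0% higher (edgeR quasi-likelihood test, Benjamini-Hochberg adjusted p under 0.05), and 35 members were lower by at least 2-fold, against 18.3% of all genes (23.3% were higher by as much). The median log2 change of the members was -2.14, beside 0.07 over the 16965 genes tested. The groups did not overlap for 41 members, against 75.2% of all genes. The count of members higher was also 0 at an unadjusted p under 0.05, and with DESeq2 and limma voom. In median, the member's level in the wild-type adenine group was 22.8% of its chow level, with a range from 5.61% (Ehhadh) to 87.8% (Ppara). These changes, and the folds given below for single members, are on the CPM scale after TMM. In mean TPM the falls were smaller. Slc27a2 went from 980 to 451 TPM, Hadha from 68.7 to 55.5, Crot from 36.9 to 30.2 and Crat from 28.1 to 23.6. Decr2 went from 33.3 to 31.8 TPM and Acaa1a from 75.3 to 72.3. In TPM, a length-corrected share of all transcripts described below, Eci2, Acox3, Ppara, Plin2 and Pex11a had a higher mean than on chow.

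The fall was uneven between branches. The 3 ketone genes had a median log2 change of -3.45, the 10 genes of uptake, activation and storage -2.70, the 17 mitochondrial genes -2.03, the 11 peroxisomal genes -1.26 and the 2 regulators -0.55. The peroxisomal branch spread the most: it held the largest fall of the list, Ehhadh (17.8-fold), and 2 of the 3 smallest called falls, Acox3 (log2 change -0.41) and Eci2 (-0.42). Whether the branches differ was not tested.

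Against wild type on adenine, the libraries labelled knockout had higher RNA of 36 members and lower RNA of 0, and 7 members were not called: Slc25a20, Eci2, Pex11a, Acot2, Plin2, Ppara and Ppargc1a. Of all genes tested, 25.1% were called higher and 21.3% lower. The rise was at least 2-fold for 8 members (3.24% of all genes), namely Acaa2, Oxct1, Acox2, Ehhadh, Acaa1b, Acsm1, Acsm2 and Acsm3. The median log2 change was 0.65, beside -0.02 over all genes tested, and the groups did not overlap for 29 members, against 24.7% of all genes. The count of members lower was 0 also at an unadjusted p under 0.05, with DESeq2 and with limma voom. With upper-quartile scaling, 1 member, Eci2, was called lower, and the share of higher calls among all genes called was 40.8% in place of 54.1%.

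The libraries labelled knockout stayed below chow for 42 members, with 0 higher, where 40.2% of all genes were called higher and 18.6% by at least 2-fold. The median log2 change was -1.37, beside 0.03 over all genes tested. Of all genes tested, 39.9% were called lower, 31 members were lower by at least 2-fold (11.3% of all genes), and the groups did not overlap for 41 members (69.7% of all genes). The count of members higher was 0 at an unadjusted p under 0.05 and with DESeq2 and limma voom as well. This comparison shares the chow libraries with the one of wild type against chow, and the labelled knockout libraries with the one of labelled knockout against wild type. In CPM, the median member level was 38.6% of chow in the labelled knockout group, where the wild-type group had 22.8%. In mean TPM, Acaa1a, Acaa1b, Acox3, Crat, Decr2, Eci2, Pex11a, Plin2 and Ppara were above chow in the labelled knockout, and the other members were below it.

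Antibody-treated mice had higher RNA of 38 members than IgG-treated mice and lower RNA of 0. Of all genes tested, 27.2% were called higher and 28.0% lower, and the rise was at least 2-fold for 18 members, against 4.09% of all genes (7.26% were lower by as much). The median log2 change was 0.95, beside -0.04 over the 16410 genes tested. The groups did not overlap for 37 members, against 50.6% of all genes. Not called were Slc25a20, Acaa1a, Fabp3, Acot2 and Plin2. The count of members lower was 0 at an unadjusted p under 0.05, and with DESeq2 and limma voom. With upper-quartile scaling 36 members were higher, and the share of higher calls among all genes called was 31.1% in place of 49.3%.

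**Figure D1:**
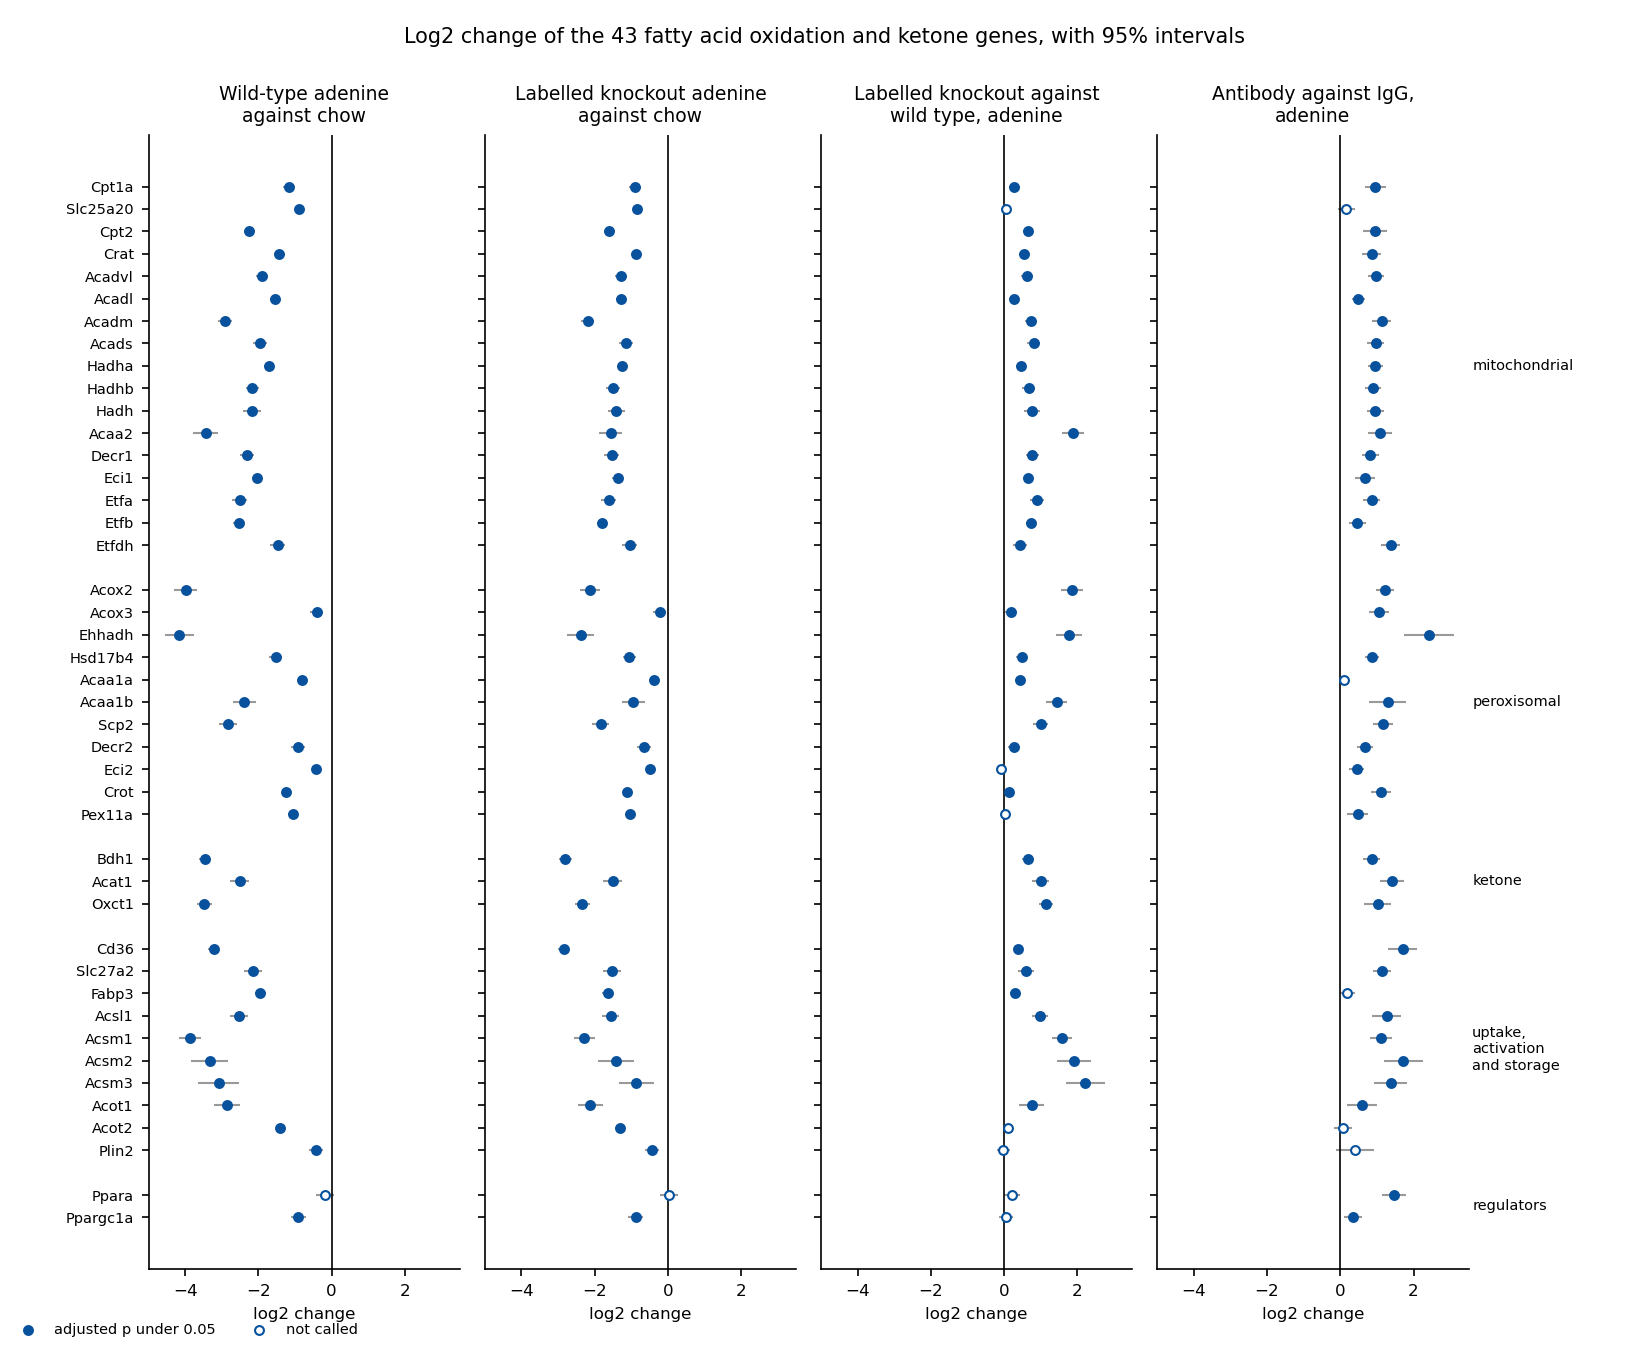
Log2 change (horizontal axis, with 95% intervals) of each of the 43 members in 4 comparisons, grouped by branch; filled points have an edgeR adjusted p under 0.05 and open points do not. In wild-type adenine against chow 42 points are filled and lie left of 0, and in antibody against IgG 38 are filled and lie right of 0.

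The libraries also differed in the markers of the cells that carry out most of this metabolism. All 15 proximal tubule markers were lower in wild-type adenine than in chow, 14 of 15 were higher in the labelled knockout than in wild type, and 15 of 15 were higher with antibody than with IgG. Their summed level was 10886 to 11238 CPM on chow, 1986 to 3502 in wild type on adenine, 4213 to 8560 in the labelled knockout, 1540 to 2344 with IgG and 5337 to 7678 with antibody, and no marker was at 0 in a whole group. The part of the marker shift in the members' change was not tested. In bulk tissue, fewer cells of a type and less RNA per cell cannot be told apart. The summed level of the 43 members divided by that of the markers was 1.37 to 1.57 on chow, 1.03 to 1.57 in wild type, 0.803 to 1.02 in the labelled knockout, 3.17 to 3.64 with IgG and 2.02 to 2.30 with antibody. The marker sum was thus larger relative to the members in every labelled knockout library than in any wild-type adenine library, and in every antibody library than in any IgG library.

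In the sum of all members, some single libraries stood high or low together with the marker sum. Within the labelled knockout group, replicate 2 had the highest member sum (7035 CPM) and marker sum (8560), and replicate 5 had the lowest of both (4281 and 4213). In the wild-type adenine group replicate 5 was highest in both (3591 and 3502), and replicate 1 was lowest in both (3111 and 1986). The uptake, activation and storage sum had that order there (1264 and 887), but the other large branches did not. The mitochondrial sum was 1209 in replicate 5 and 1210 in replicate 1, with replicate 2 highest and replicate 4 lowest. Replicate 3 was lowest in the peroxisomal and ketone sums, with replicate 5 highest in the former and replicate 4 in the latter. Among IgG libraries, replicates 1 and 3 had member sums of 7167 and 7426 and replicates 2 and 4 had 5604 and 5883, in the same order as their marker sums of 2256, 2344, 1540 and 1776. Antibody replicate 1 was lowest of its group in both (12057 and 5337) and replicate 4 highest (16749 and 7678).

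**Figure D2:**
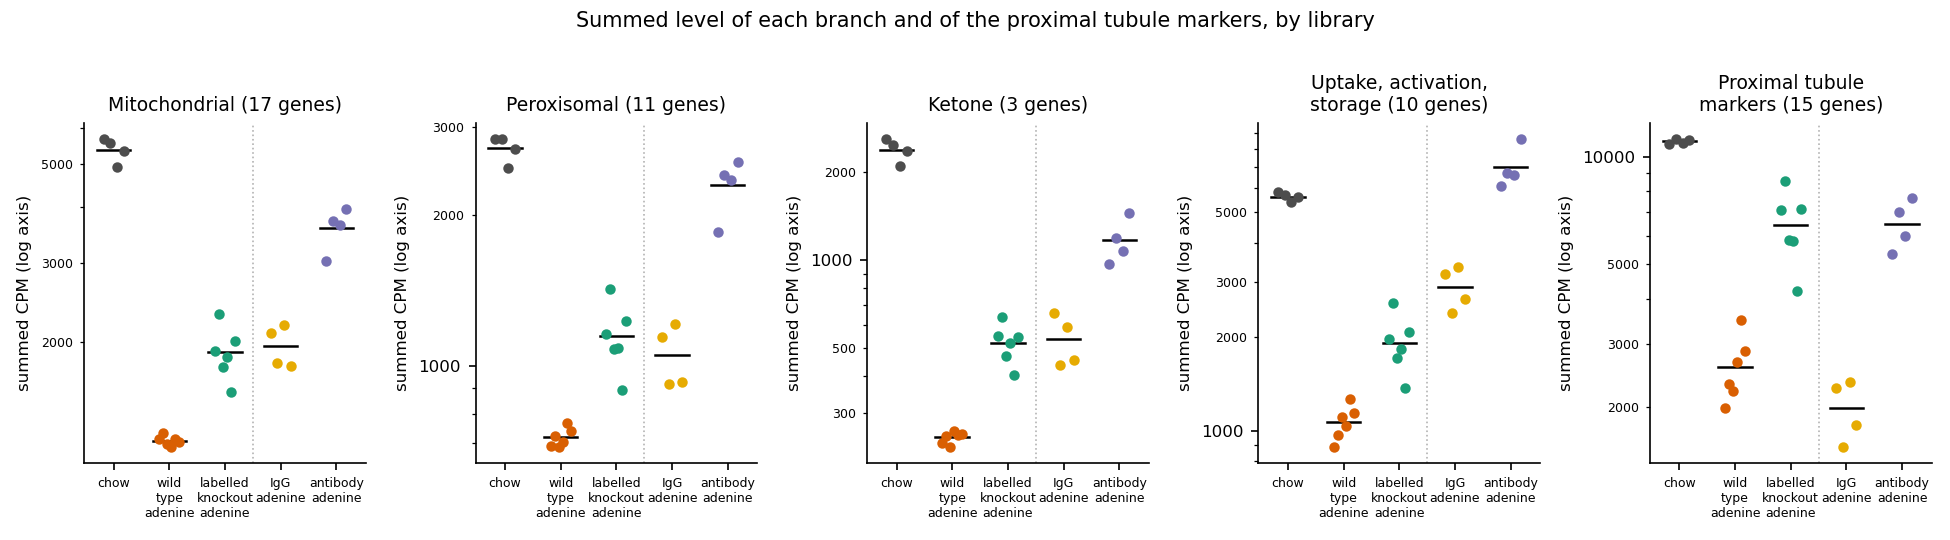
Summed CPM (log axis) of 4 branches and of the 15 proximal tubule markers in each library, with the group mean as a bar; the dotted line divides the 2 experiments, which were scaled separately. Mitochondrial sums were 4928 to 5692 on chow, 1161 to 1252 in wild type, 1546 to 2305 in the labelled knockout, 1768 to 2175 with IgG and 3036 to 3964 with antibody.

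Markers of other cell types moved too. The injured tubule markers, 10 genes such as Havcr1 and Spp1, were all higher in wild-type adenine than in chow, with 6 of 10 lower in the labelled knockout than in wild type and 8 of 10 lower with antibody. Of the 10 macrophage markers 9 were higher in wild type on adenine than on chow, 1 was lower in the labelled knockout than in wild type, and 10 were lower with antibody than with IgG (summed 186 to 270 CPM and 409 to 806 CPM). The other tubule segments went with the members. Of 9 distal tubule and loop of Henle markers, 8 were lower in wild type against chow, 7 higher in the labelled knockout against wild type and 8 higher with antibody, and of the 8 collecting duct markers 7, 5 and 5 were. The 8 endothelial markers were all lower in wild type on adenine than on chow.

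Of the 6 hepatocyte markers, whose cells also oxidise fatty acids, 5 were lower and Serpina1a was higher in wild type against chow, 5 were higher and Serpina1a was lower in the labelled knockout against wild type, and 5 were higher with antibody, with Apoa1 not called. They summed to 203 to 210 CPM on chow, 64.6 to 85.2 in wild type and 100.01 to 162 in the labelled knockout, and to 273 to 605 CPM with IgG and 1957 to 2903 with antibody. Alb was at 0.706 to 3.72 CPM with IgG and 6.72 to 11.8 CPM with antibody, and Cyp2e1, which kidney also expresses, at 196 to 468 and 1758 to 2656. Of the 8 adipocyte markers 7 were tested in the knockout experiment: 5 were lower and 2 higher in wild type against chow, and 3 were higher and 1 lower in the labelled knockout against wild type. They summed to 6.68 to 17.9 CPM on chow, 2.80 to 3.52 in wild type and 2.40 to 8.46 in the labelled knockout. In the antibody experiment 3 were tested, of which 2 were lower with antibody, and their sum was at most 1.798 CPM. The muscle markers summed to 3.21 to 38.9 CPM on chow, with replicate 3 highest. The 5 red blood cell markers, which are not made in tubules, summed to 1072 to 1295 CPM on chow, 12.5 to 35.7 in wild type and 204 to 492 in the labelled knockout. All 5 were higher in the labelled knockout than in wild type. With IgG they summed to 25.3 to 49.7 CPM and with antibody to 37.6 to 56.3, and 0 of the 5 were called. The part of these cells in the members' levels was not tested.

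Compared between genes per length, as TPM (transcript abundances scaled to a common sum per library), the members had very different levels. On chow the highest was Slc27a2 at 980.5 ± 72.6 TPM (SD, n = 4), followed by Etfb at 837 ± 37.2, Oxct1 at 616 ± 30.98, Acsm2 at 597 ± 18.7 and Scp2 at 490 ± 72.4, and the lowest was Acsm3 at 1.16 ± 0.212 TPM. In wild type on adenine Slc27a2 still led at 451 ± 39.4 TPM (n = 6), and Ehhadh was at 11.2 ± 1.86 TPM, where it had 109 ± 15.04 on chow. Eci2, at 60.5 ± 2.49 TPM on chow and 87.4 ± 11.5 TPM in wild type on adenine, moved from place 24 to place 7 of the 43 in order of TPM. TPM is a share of all transcripts of a library with its own length correction, so it can move against CPM, in which Eci2 fell. In the antibody experiment Slc27a2 was at 815 ± 133 TPM with IgG and 1793 ± 100.5 TPM with antibody (n = 4 each), which was 23.7% and 28.3% of all member TPM.

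The entry of long chains into mitochondria starts with Cpt1a, carnitine palmitoyltransferase 1, the regulated step of the shuttle. Its level was 314, 306, 279.9 and 297 CPM in the 4 chow libraries, 125 to 143 (median 131) in wild type on adenine and 135 to 196 (median 158) in the labelled knockout. In CPM the wild-type and labelled knockout ranges overlapped, and both lay below every chow library. In TPM all 3 ranges overlapped, at 42.2 to 50.0 on chow, 35.0 to 48.6 in wild type and 40.1 to 53.2 in the labelled knockout. The log2 change was -1.17 ± 0.075 (SE; edgeR adjusted p = 2.52e-11) in wild type against chow and 0.28 ± 0.068 (adjusted p = 0.0025) in the labelled knockout against wild type. In the antibody experiment Cpt1a was at 209, 185, 214 and 182 CPM with IgG and 283, 386, 426 and 437 CPM with antibody. All 4 antibody libraries lay above all IgG libraries, with a log2 change of 0.95 ± 0.13 (edgeR adjusted p = 1.82e-04).

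Downstream in the shuttle, Slc25a20, the carnitine-acylcarnitine translocase, fell on adenine (log2 change -0.90 in wild type), and was not called in the labelled knockout against wild type (0.05, 95% interval -0.05 to 0.15) or with antibody (0.17, -0.08 to 0.41). Its mean TPM was 33.1 on chow and 30.4 in wild type, with overlapping ranges. Cpt2, which reforms the acyl-CoA in the matrix, fell by 4.75-fold in wild type and rose with both the knockout label (0.65) and antibody (0.94). Crat, carnitine acetyltransferase, fell by 2.68-fold and rose by 0.55 and 0.85 on the log2 scale. Only 31.9% of Crat reads on chow, as a mean over libraries, were assigned to its protein-coding transcripts, against 54.7% in wild type and 64.4% in the labelled knockout, and 60.03% with IgG and 96.6% with antibody. With those transcripts alone, the log2 change of Crat was -0.50 in wild type against chow, in place of -1.42, 0.74 in the labelled knockout against wild type, in place of 0.55, and 1.49 with antibody, in place of 0.85. In that setting, the log2 change of Crat in the labelled knockout against chow was 0.24 and not called (edgeR adjusted p = 0.051), in place of a fall (-0.88).

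The first dehydrogenation in mitochondria is shared by Acadvl, Acadl, Acadm and Acads, which act on very long, long, medium and short chains. All 4 fell on adenine and rose in both the labelled knockout and the antibody group. Acadm was highest in the chow libraries, at 1037, 961, 855 and 938 CPM, with 115 to 145 (median 121) in wild type and 176 to 249 (median 207) in the labelled knockout, and these 3 groups did not overlap. The log2 change in wild type against chow was -2.91 ± 0.087 for Acadm, -1.96 ± 0.094 for Acads, -1.90 ± 0.079 for Acadvl and -1.55 ± 0.065 for Acadl. In the labelled knockout against wild type Acads rose by 0.81, Acadm by 0.72, Acadvl by 0.63 and Acadl by 0.27. With antibody the rise was 1.13 for Acadm, 0.98 for Acadvl, 0.97 for Acads and 0.50 for Acadl. Acadl thus had the smallest change of the 4 in each of these 3 comparisons, a difference between genes that was not tested.

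The next steps are run by the trifunctional protein of Hadha and Hadhb, by Hadh, which oxidises shorter hydroxyacyl chains, and by the thiolase Acaa2. Hadha fell by 3.26-fold, Hadhb by 4.48-fold and Hadh by 4.499-fold in wild type, and all 3 rose with the knockout label (log2 0.47, 0.67 and 0.77) and with antibody (0.96, 0.90 and 0.95). In TPM the Hadha ranges overlapped, at 61.0 to 74.4 on chow and 46.5 to 63.4 in wild type. Acaa2, which releases acetyl-CoA, was at 422, 428, 370.4 and 409 CPM on chow, 32.1 to 43.6 (median 36.1) in wild type and 83.1 to 195 (median 137) in the labelled knockout. The labelled knockout libraries were all above wild type and all below chow, with a log2 change of 1.89 ± 0.14 against wild type (edgeR adjusted p = 2.49e-08). With IgG Acaa2 was at 51.9, 38.99, 52.1 and 37.3 CPM and with antibody at 73.4, 115, 98.9 and 93.6 CPM, again without overlap (1.08 ± 0.15).

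Decr1 and Eci1, which prepare unsaturated chains for the cycle, fell by 4.95-fold and 4.08-fold in wild type. They rose by 0.77 and 0.66 on the log2 scale in the labelled knockout, and by 0.82 and 0.67 with antibody. Electrons from the dehydrogenases pass through the flavoprotein of Etfa and Etfb to Etfdh, its link to the respiratory chain. Etfa and Etfb fell by 5.69-fold and 5.82-fold and Etfdh by 2.78-fold. Etfdh was at 67.3, 54.1, 71.2 and 57.2 CPM with IgG and 128, 168, 167 and 183 CPM with antibody, every antibody library lying above every IgG library. Its log2 change of 1.37 ± 0.12 was the largest of the mitochondrial branch with antibody, where Etfb had 0.47 ± 0.10. In the labelled knockout against wild type the order was the other way, 0.44 ± 0.090 for Etfdh, whose ranges overlapped, and 0.74 ± 0.061 for Etfb.

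**Figure D3:**
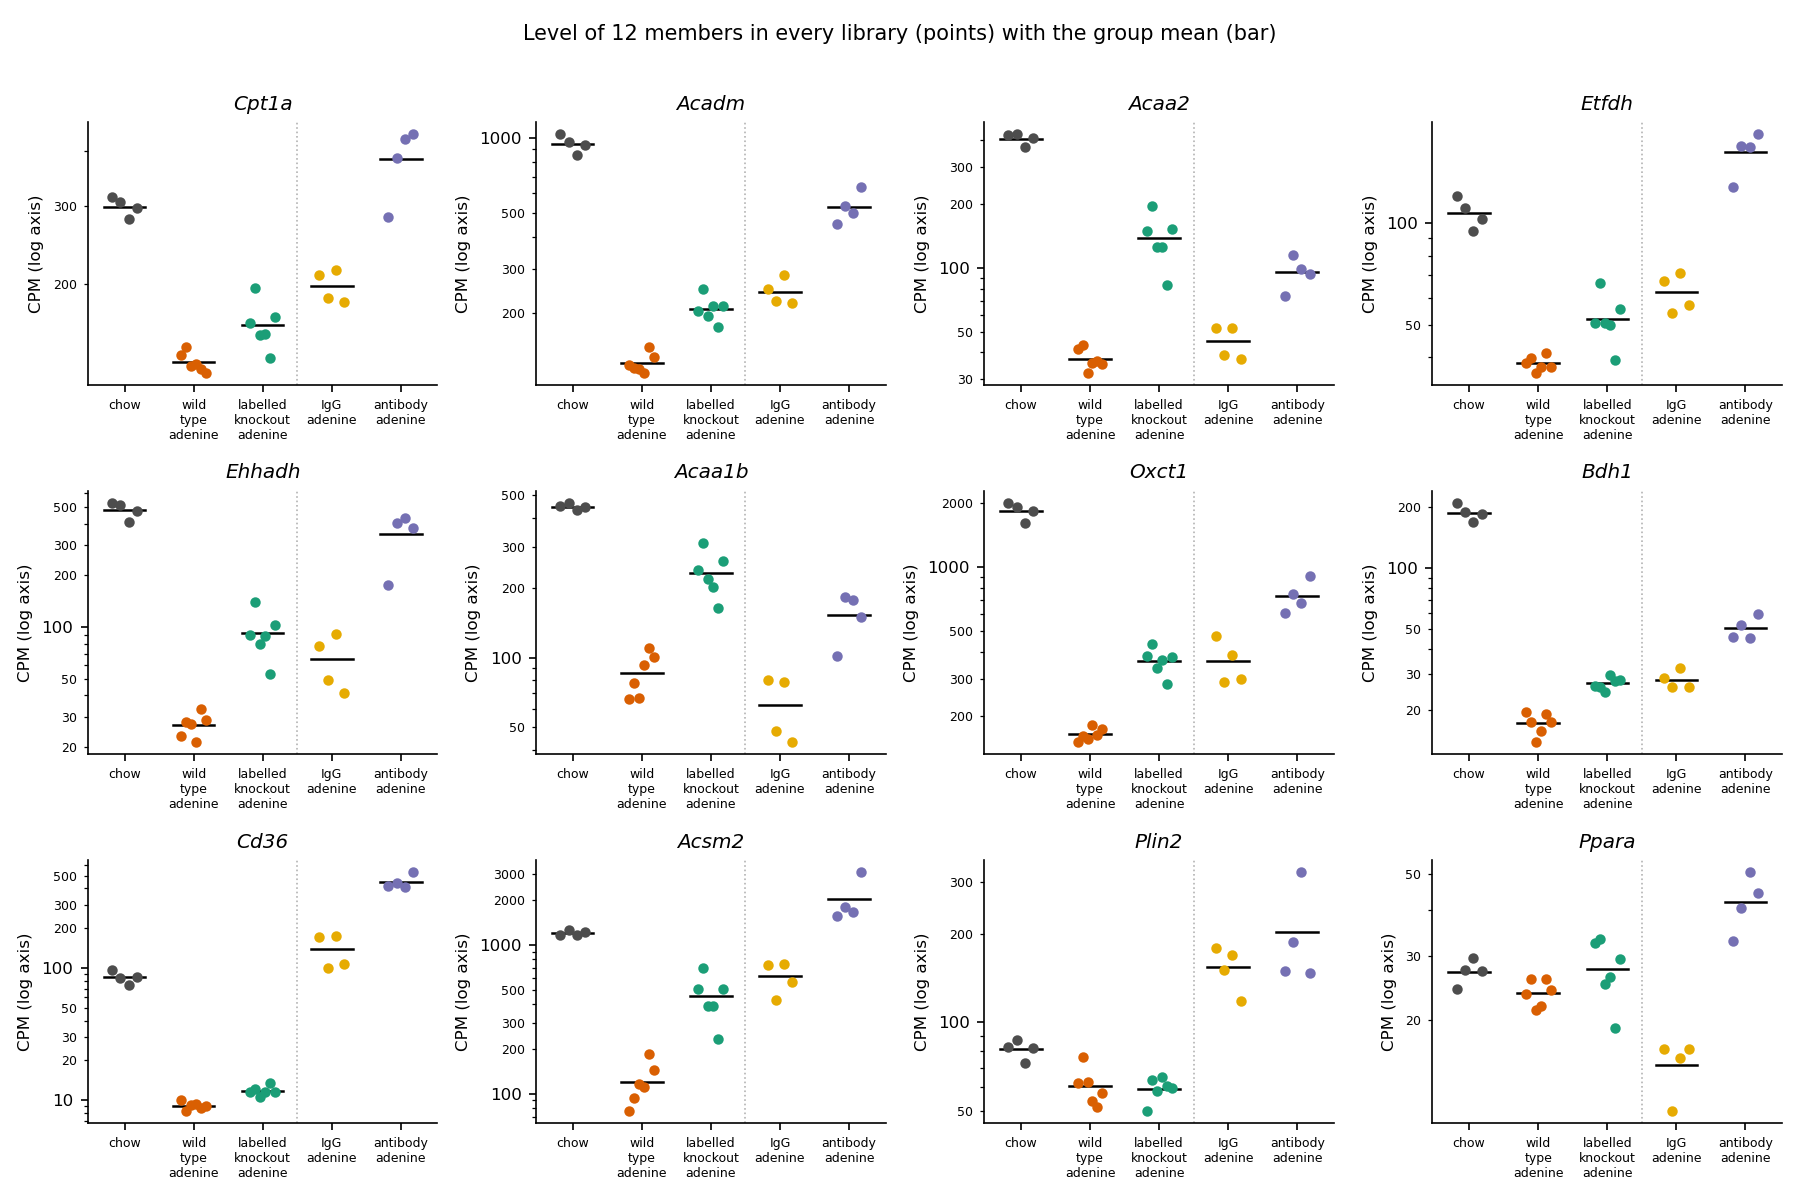
CPM (log axes, each panel with its own range) of 12 members in every library, with the group mean as a bar; the dotted line divides the 2 experiments, which were scaled separately. Ehhadh shows no overlap between any 2 groups of the knockout experiment, Ppara overlaps between all 3 of them, and all 4 antibody points of both genes lie above the IgG points.

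In peroxisomes, Ehhadh, the bifunctional hydratase and dehydrogenase, had the largest fall on adenine of all 43 members and the largest rise with antibody. It was at 528, 514, 411 and 472 CPM on chow, 21.5 to 33.2 (median 27.6) in wild type and 53.3 to 140.5 (median 89.5) in the labelled knockout. No groups overlapped, and every labelled knockout library lay under every chow library (-2.38 ± 0.18 on the log2 scale). In the antibody experiment it was at 77.97, 49.4, 91.2 and 41.2 CPM with IgG and 177, 403, 429.6 and 376 CPM with antibody. Antibody replicate 1 was the lowest of its group, yet above all IgG libraries, and the log2 change was 2.42 ± 0.31 (edgeR adjusted p = 1.38e-04).

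Acox2, the oxidase of branched chains and bile acid precursors, followed with a fall of 15.8-fold in wild type, from 87.6, 81.8, 68.6 and 81.9 CPM on chow to 3.89 to 6.77 (median 4.804) on adenine. The labelled knockout libraries, at 13.5 to 25.2 (median 18.2), did not overlap either group. Acox3, an oxidase of the same family, had small changes in the knockout experiment: its log2 change was -0.41 ± 0.083 in wild type against chow (edgeR adjusted p = 1.62e-04) and 0.19 ± 0.075 in the labelled knockout against wild type (adjusted p = 0.042). Under upper-quartile scaling that last call did not hold (adjusted p = 0.149), nor did it with protein-coding transcripts alone (0.139) or without labelled knockout replicate 1, 2, 4 or 6 or wild-type replicate 1, 2, 3 or 4, each left out alone. Against chow, the Acox3 change turned to 0.17 with a transcript length offset in the labelled knockout, from -0.22, a call that was lost without labelled knockout replicate 3 or 5 or any 1 chow library. In wild type against chow the offset left -0.07, not called (edgeR adjusted p = 0.44). With antibody Acox3 rose from 74.3, 65.2, 76.6 and 76.1 CPM to 141, 143, 129.6 and 198 CPM, a log2 change of 1.07 ± 0.12 without overlap.

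Hsd17b4, the other bifunctional enzyme, Scp2, a thiolase and sterol carrier, and the thiolase Acaa1b fell by 2.89-fold, 7.09-fold and 5.22-fold in wild type, and rose in the labelled knockout by 0.48, 1.00 and 1.44 on the log2 scale. With antibody they rose by 0.86, 1.17 and 1.29. Acaa1a, a near-identical copy of Acaa1b, had a smaller fall in wild type (log2 change -0.81) and was not called with antibody (0.11, 95% interval -0.02 to 0.23). Since reads can be split wrongly between these copies, they were also summed: the pair changed by -1.72 in wild type against chow, 0.96 in the labelled knockout against wild type and 0.86 with antibody, each called.

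Eci2 and Decr2, the peroxisomal partners of Eci1 and Decr1, had smaller changes on adenine than those, -0.42 and -0.92 on the log2 scale in wild type. Eci2 was not called in the labelled knockout against wild type (-0.08, 95% interval -0.17 to 0.01), and rose with antibody (0.45 ± 0.094). Decr2 rose in both (0.27 and 0.67), with 29.8% of its chow reads on protein-coding transcripts. The share was 18.3% with IgG and 38.9% with antibody. On those transcripts alone the antibody change of Decr2 was 1.70, in place of 0.67, and the change in wild type against chow -0.44, in place of -0.92. Its difference between the effects was -1.40 there, in place of -0.48. Its change in the labelled knockout against chow was -0.09 and not called (edgeR adjusted p = 0.59), in place of -0.65. Crot, which moves shortened chains out of the peroxisome as octanoylcarnitine, was at 181, 143, 199.8 and 145 CPM with IgG and 306, 368, 376 and 402 CPM with antibody. The antibody libraries were all higher, by 1.12 ± 0.12, where the change in the labelled knockout against wild type was 0.14 ± 0.046 with overlapping ranges. Pex11a, a protein of peroxisome division, fell in wild type (-1.06), was not called in the labelled knockout against wild type (0.02, -0.09 to 0.14) and rose with antibody (0.47).

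For ketone bodies, Oxct1, the transferase that commits acetoacetate to oxidation, was among the most abundant members on chow, at 1999, 1906, 1616 and 1833 CPM. It was at 152 to 182 (median 162) CPM in wild type on adenine and 285 to 437 (median 372) CPM in the labelled knockout. The 3 groups did not overlap, with log2 changes of -3.48 ± 0.097 in wild type against chow and 1.14 ± 0.086 in the labelled knockout against wild type. Bdh1, the mitochondrial β-hydroxybutyrate dehydrogenase, was at 210.0, 190.2, 168 and 184 CPM on chow, 13.9 to 19.6 (median 17.4) in wild type and 24.7 to 29.9 (median 27) in the labelled knockout. Its fall of 10.9-fold was close to that of Oxct1, and its labelled knockout level lay 6.95-fold under chow, where Oxct1 lay 5.05-fold under. Acat1, the acetoacetyl-CoA thiolase, fell by 5.68-fold and rose by 1.00 ± 0.11 on the log2 scale in the labelled knockout.

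With antibody all 3 ketone genes rose. Oxct1 was at 475, 290.3, 389 and 299 CPM with IgG and 612, 748, 679 and 904 CPM with antibody, Bdh1 at 25.8 to 32.2 and 45.4 to 59.8 CPM, and Acat1 at 123 to 171 and 312 to 487 CPM. None of the 3 overlapped between the groups, and the log2 changes were 1.02 ± 0.17, 0.85 ± 0.10 and 1.41 ± 0.15. None of them was called different between the effect of the knockout label and that of the antibody by the test described below, at log2 differences of 0.05, -0.27 and -0.49. Acat1 passed that test with DESeq2 (-0.52, adjusted p = 0.033), and without labelled knockout replicate 2, antibody replicate 1 or IgG replicate 3. Bdh1 passed without wild-type replicate 3 (-0.33, edgeR adjusted p = 0.047) or IgG replicate 3 (-0.35, 0.049).

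The other genes of ketone metabolism and monocarboxylate transport were 11, of which 10 passed the filter (Oxct2a did not). Of the 10 tested, 9 fell and 1 rose in wild type against chow, 8 rose and 1 fell in the labelled knockout against wild type, and 8 rose with antibody with 2 not called. The rise on adenine was that of Slc16a6, a monocarboxylate carrier, at 17.5, 18.4, 17.9 and 16.2 CPM on chow and 39.6 to 52.3 CPM in wild type. It was also the 1 that fell in the labelled knockout (28.2 to 35.8 CPM, log2 change -0.61 ± 0.069), and was not called with antibody (-0.12). Slc5a8 and Slc5a12, sodium-coupled monocarboxylate carriers of the tubule, changed by -2.99 and -1.79 on the log2 scale in wild type and rose with antibody by 1.51 and 1.88. Aacs, which activates acetoacetate in the cytosol, rose with antibody by 1.55. Bdh2, Acat2 and Slc16a7 fell on adenine and rose with antibody too, and Slc16a1 fell on adenine (-0.79) and was not called in the labelled knockout against wild type (0.16) or with antibody (0.08).

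Uptake and activation held both steep and shallow falls. Cd36, the fatty acid translocase of the plasma membrane, was at 95.8, 84.4, 75.03 and 84.9 CPM on chow, 8.32 to 10.02 (median 9.14) in wild type and 10.7 to 13.5 (median 11.6) in the labelled knockout. The groups did not overlap, but the labelled knockout stayed 7.18-fold under chow, the lowest level relative to chow of all members in that group. With IgG Cd36 was at 172, 101, 175 and 108 CPM and with antibody at 418, 442, 411 and 533 CPM, a log2 change of 1.70 ± 0.18 against 0.38 ± 0.069 in the labelled knockout against wild type. CD36 is also made by macrophages, endothelium and adipocytes. Of the 10 macrophage markers 10 were lower with antibody and of the 8 endothelial markers 3 were lower and 5 not called. In the labelled knockout against wild type all 8 endothelial markers were higher (summed 257 to 393 CPM and 167 to 243 CPM). The part of these cells in the Cd36 changes was not tested.

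Slc27a2, a very-long-chain acyl-CoA synthetase and carrier, was at 3252, 3089, 3014 and 3086 CPM on chow, 581 to 823 (median 729.7) in wild type and 815 to 1396 (median 1062) in the labelled knockout, and the last 2 ranges overlapped. It was at 1819, 1462, 1958 and 1624 CPM with IgG and 3565, 3698, 3637 and 4187 CPM with antibody, without overlap. Acsl1, the main long-chain activating enzyme, fell by 5.795-fold in wild type and rose by 0.97 with the knockout label and 1.27 with antibody. Fabp3, a cytosolic fatty acid carrier, fell by 3.86-fold, rose by 0.31 with the knockout label, and was not called with antibody (0.19, 95% interval -0.02 to 0.40).

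The medium-chain activating enzymes Acsm1, Acsm2 and Acsm3 all fell on adenine and rose with the knockout label and with antibody. Acsm2 was at 1169, 1268, 1174 and 1218 CPM on chow, 76.7 to 184 (median 113) in wild type and 234 to 697 (median 449) in the labelled knockout. The 3 groups did not overlap, and the labelled knockout was 3.77-fold above wild type. With antibody Acsm2 was at 1570.1, 1816, 1666 and 3102 CPM, against 733, 427, 743 and 563 with IgG, replicate 4 of the antibody group lying well above the others. Acsm1 fell by 14.6-fold, and rose by 1.59 ± 0.13 with the knockout label and 1.10 ± 0.14 with antibody on the log2 scale. Acsm3 was at 3.55, 3.83, 4.600 and 3.497 CPM on chow, 0.2898 to 0.864 (median 0.378) in wild type and 1.46 to 3.58 (median 1.91) in the labelled knockout, and in the antibody experiment at 63.9, 50.1, 84.6 and 55.5 CPM with IgG and 116, 159.9, 153 and 229 CPM with antibody. In TPM its mean was 1.16 on chow and 27.1 with IgG. It had the largest rise of the members in the labelled knockout against wild type (2.22 ± 0.26), and overlapped with chow there.

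The Y-linked gene Ddx3y, looked at after these levels were seen, had 4 to 14 reads in the 16 libraries of the knockout experiment and 3484 to 4664 in the 8 of the antibody experiment, and Eif2s3y 0 to 4 and 2725 to 5194. The 2 experiments therefore differ in more than the treatment: by these reads the mice of the knockout experiment were female and those of the antibody experiment male. Differences in level between the experiments, that of Acsm3 included, cannot be told apart from a difference of sex.

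Among thioesterases and storage, Acot1 and Acot2, near-identical copies that release fatty acids from CoA in cytosol and mitochondria, fell by 7.28-fold and 2.65-fold in wild type. Acot1 rose with the knockout label (0.75 ± 0.16) and with antibody (0.58 ± 0.19, edgeR adjusted p = 0.021), while Acot2 was not called in either (0.09 and 0.08). The Acot1 call with antibody did not hold under upper-quartile scaling (edgeR adjusted p = 0.065) or without antibody replicate 2 or 3 or IgG replicate 4. Summed, the pair changed by 0.37 in the labelled knockout (edgeR adjusted p = 0.0036) and by 0.30 with antibody, where it was not called (adjusted p = 0.089). Plin2, the coat protein of lipid droplets, was at 82.1, 86.7, 72.9 and 81.9 CPM on chow, 51.2 to 75.9 (median 59.7) in wild type and 49.9 to 65.1 (median 59.97) in the labelled knockout. It was the only called member of the wild-type and chow comparison whose ranges overlapped, at a log2 change of -0.42 ± 0.091, and with upper-quartile scaling it missed the threshold (edgeR adjusted p = 0.052). It was at 178, 151, 169 and 118 CPM with IgG and 149, 188, 325 and 147 with antibody, with antibody replicates 2 and 3 above every IgG library and replicates 1 and 4 within their range, and was not called (0.39, 95% interval -0.12 to 0.91).

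Of the regulators, Ppara, which encodes PPARα, was the 1 member not called lower on adenine. It was at 24.4, 27.5, 29.5 and 27.2 CPM on chow, 21.4 to 25.9 (median 23.9) in wild type and 19.1 to 33.4 (median 27.8) in the labelled knockout. All 3 ranges overlapped, with 95% intervals of -0.43 to 0.06 for wild type against chow and -0.00 to 0.43 for the labelled knockout against wild type on the log2 scale. Without labelled knockout replicate 5, the lowest, the latter change was 0.30 and was called (edgeR adjusted p = 0.0040). With IgG Ppara was at 16.7, 11.3, 15.8 and 16.8 CPM and with antibody at 32.9, 40.5, 50.8 and 44.4 CPM. The groups did not overlap, and the log2 change was 1.48 ± 0.15 (edgeR adjusted p = 5.79e-05). Ppargc1a, a coactivator of PPARα and of mitochondrial biogenesis, fell on adenine (-0.92 ± 0.098), was not called with the knockout label (0.04, 95% interval -0.14 to 0.23) and rose with antibody (0.35 ± 0.11, adjusted p = 0.021). The Ppargc1a call with antibody did not hold under upper-quartile scaling (adjusted p = 0.14) or without IgG replicate 4 (0.051). In mean TPM Ppargc1a was at 11.9 on chow and 11.5 in wild type on adenine.

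The difference between the effect of the knockout label and that of the antibody was tested over the 20 adenine libraries as 1 contrast, labelled knockout minus wild type less antibody minus IgG. It was called lower, a smaller rise with the knockout label, for 16 members and higher for 3, against 21.6% and 16.3% of the 17119 genes tested. It was at least 2-fold lower for 4 members, Cd36, Ppara, Crot and Etfdh, and at least 2-fold higher for 0 (largest 0.73), against 1.21% and 4.84% of all genes. With upper-quartile scaling 69.1% of all genes called were higher, in place of 42.98%. The median difference was -0.31 for the members and -0.03 for all genes. Without antibody replicate 1 it was lower for 24 members and higher for 1. Each effect is measured within its own experiment, but the experiments differ in mice, in depth and, by Y-linked reads, in sex. The difference between the effects therefore cannot be told apart from a difference between experiments.

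The largest negative differences were those of Cd36 (-1.40 ± 0.19), Ppara (-1.34 ± 0.20), Crot (-1.05 ± 0.12), Etfdh (-1.01 ± 0.16), Acox3 (-0.95 ± 0.15) and Cpt1a (-0.75 ± 0.15), each with an edgeR adjusted p of at most 4.95e-04. The 3 positive ones were Acaa2 (0.73 ± 0.24, adjusted p = 0.021), Acox2 (0.57 ± 0.21, 0.039) and Acaa1a (0.24 ± 0.085, 0.031). Summed with Acaa1b, its near-identical copy, Acaa1a no longer had a called difference (0.02, edgeR adjusted p = 0.93). None of the 3 passed with a transcript length offset, where all 3 had an unadjusted p under 0.05, and DESeq2 and limma voom each called 3. Acaa2 kept its call with each library left out in turn. The Acox2 call was lost without any 1 of labelled knockout replicates 2, 4 and 6, wild-type replicates 2 and 3, antibody replicates 1 and 3, or IgG replicates 1, 3 and 4. The Acaa1a call was lost without wild-type replicate 3, antibody replicate 1 or 3, or IgG replicate 2. Beside them, 5 of the 15 proximal tubule markers had a lower difference and 10 were not called. All 10 macrophage markers and all 5 red blood cell markers had a higher one. Their part in the members' differences was not tested.

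**Figure D4:**
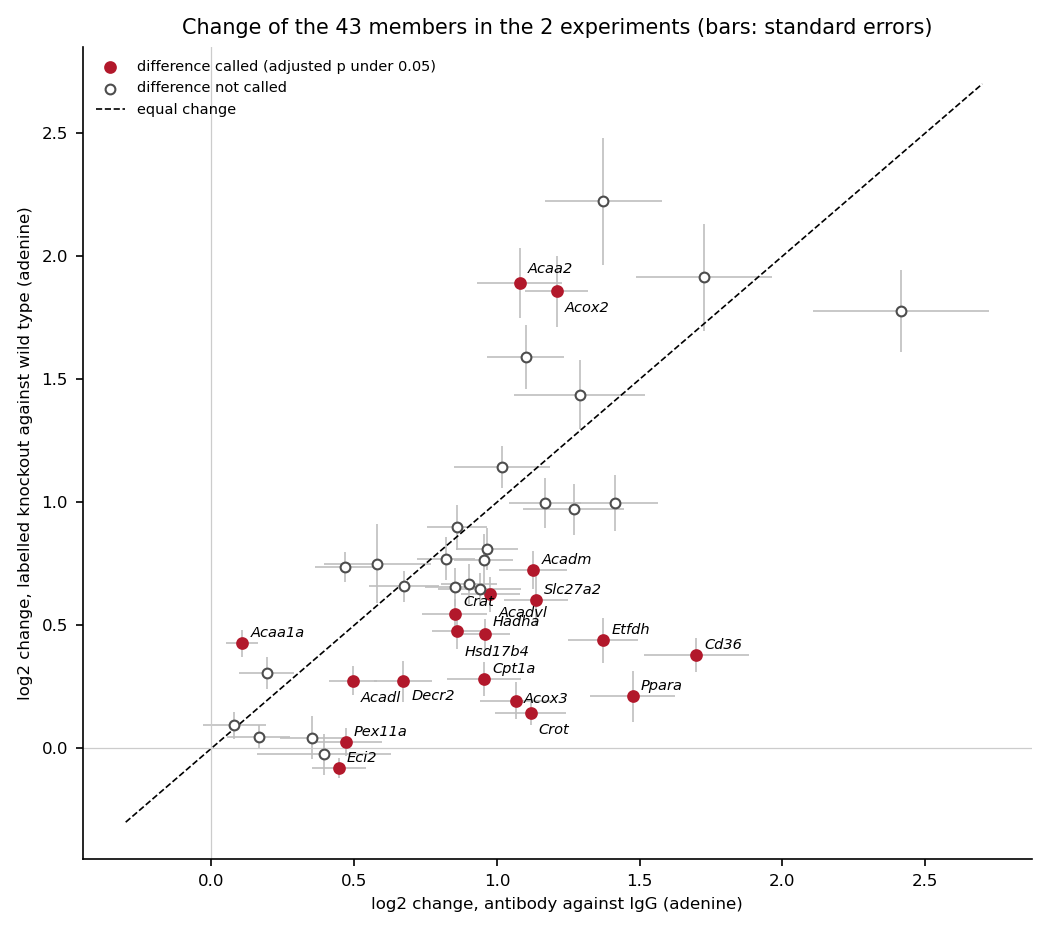
Log2 change in the labelled knockout against wild type (vertical axis) and in antibody against IgG (horizontal axis) for the 43 members, with standard errors; the dashed line marks equal change and red points are members whose difference was called. The 16 red points under the line include Cd36 and Ppara, and the 3 above it are Acaa2, Acox2 and Acaa1a.

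The wider pathway was read in 113 other genes of these branches, of which 111 were found and 108 tested. In wild type against chow 84 were lower and 14 higher, in the labelled knockout against wild type 68 were higher and 10 lower, and with antibody 69 were higher and 8 lower. Their median log2 changes were -1.17, 0.37 and 0.57. The genes named here are ranked by log2 change among called genes of this list with a mean of at least 5 CPM, and a few are left out, so larger changes of scarcer genes are not named. The largest falls on adenine were those of Hao2, a peroxisomal hydroxyacid oxidase (-4.79 ± 0.18), Pecr, a peroxisomal enoyl-CoA reductase (-3.18 ± 0.14), and Nudt19, a coenzyme A hydrolase (-3.14 ± 0.082). The largest rises were those of Cpt1c, a carnitine palmitoyltransferase relative known from brain (2.36 ± 0.15), Ppard, which encodes PPARδ (1.54 ± 0.073), and Slc16a6. Nudt19 and Hao2 were also among the lowest in the labelled knockout against chow (-2.21 and -2.59), and Cpt1c, Ppard and Acacb, an acetyl-CoA carboxylase that makes an inhibitor of the carnitine shuttle, were the highest (1.98, 1.51 and 0.87).

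Within the same limit of 5 CPM, in the labelled knockout against wild type the largest rises were Hao2 (2.20 ± 0.16), Dgat2, which makes triglyceride (1.58 ± 0.14), and Pecr (1.41 ± 0.13). The largest falls were those of Pdk4, Angptl4 and Slc16a6. Pdk4, a kinase that inhibits pyruvate dehydrogenase, was at 21.4 to 30.1 CPM in wild type and 8.54 to 11.8 in the labelled knockout (-1.35 ± 0.085). Angptl4, an inhibitor of lipoprotein lipase, changed by -0.83 ± 0.16. Pdk4 and Angptl4, both known PPARα targets, are named because they fell the most, while 68 of the 108 genes were called higher. The part of PPARα in these changes was not tested. With antibody the largest rises included Slc5a12 (1.88 ± 0.18) and Dgat2 (1.84 ± 0.19), and the only called falls of genes above that limit were the coactivator Ppargc1b (-0.61 ± 0.15) and the droplet coat protein Plin3 (-0.46 ± 0.079). The difference between the 2 effects was lower for 43 of the 108 and higher for 10. It was among the most negative for Acot12, an acetyl-CoA thioesterase (-1.02 ± 0.21), and most positive for Hao2 (1.01 ± 0.24), Slc27a3 (0.79 ± 0.21) and Mgll (0.76 ± 0.23).

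The transcripts to which the members' reads were assigned also differed between groups. On protein-coding transcripts lay 94.1% to 95.1% of member reads on chow, 86.1% to 87.4% in wild type on adenine, 89.2% to 92.1% in the labelled knockout, 94.6% to 95.5% with IgG and 96.4% to 96.9% with antibody. The other nuclear genes shifted alike, with 87.6% to 89.5%, 79.2% to 80.4%, 82.4% to 84.0%, 86.6% to 88.1% and 89.9% to 90.9% in the same order of groups. By gene means, the share was lower in wild type on adenine than on chow for 34 members, higher in the labelled knockout than in wild type for 31, and higher with antibody than with IgG for 32. Acads had 97.6% on chow, 70.0% in wild type and 86.9% in the labelled knockout, and Slc25a20 had 92.8%, 67.6% and 75.9%. Counted on protein-coding transcripts alone, 42 members were lower in wild type than on chow, 36 higher in the labelled knockout than in wild type, 40 lower in the labelled knockout than on chow, and 36 higher with antibody than with IgG. Of all genes tested in that setting, 40.5%, 24%, 39% and 27.5% were called in those directions. This setting was chosen after the data were seen.

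**Figure D5:**
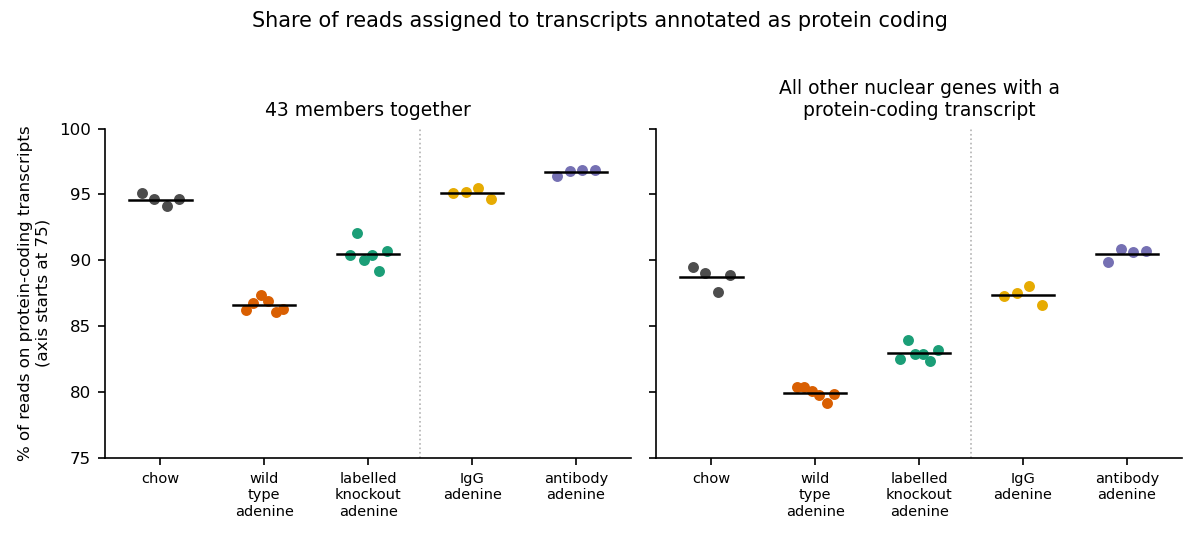
Percent of reads assigned to transcripts annotated as protein coding (vertical axis, starting at 75) in every library, for the 43 members together and for all other nuclear genes that have such a transcript, with the group mean as a bar. The wild-type adenine libraries are lowest in both panels, at 86.1% to 87.4% and 79.2% to 80.4%.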

How the data were processed

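Total RNA (400 ng) went into TruSeq stranded libraries per the labels' protocols. The submitters' processing notes name FastQC, Salmon, DESeq2, DESeq and build GRCm39, without versions. The deposited files hold, per transcript, the authors' Salmon estimated counts, TPM and effective lengths. Estimated counts and TPM were summed per gene through GENCODE M21 identifiers, which matched 99.08% of 116755 transcripts (the unmatched held 0.439% to 0.527% of reads), and counts were rounded. Since M21 is on GRCm38, no gene coordinates were taken from it.

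Calls came from edgeR 4.0.16 (R 4.3.3), with TMM scaling, filterByExpr, the quasi-likelihood test and Benjamini-Hochberg adjustment over all genes tested at 0.05. The 3 fits used the 16 libraries of the knockout experiment, the 8 of the antibody experiment, and the 20 adenine libraries for the difference between effects. Log2 changes carry a prior count of 0.125 and intervals are at 95%. The edgeR test gives no standard error, so it was derived as the absolute log2 change divided by the square root of the F statistic. The intervals were built from it. Alternatives were RLE, upper-quartile scaling, DESeq2 1.42.0, limma 3.58.1, no filter, a transcript length offset, leaving out mitochondrially encoded genes (16.9% to 30.1% of reads), a replicate block, and leaving out each library. Summing near-identical pairs and counting only protein-coding transcripts were added after seeing the data. The edgeR script was tested on simulated data.

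All 43 members are named, with other ketone genes and, of the other listed genes, the 3 largest called changes in each direction with a mean of at least 5 CPM. A few genes that this rule names are not reported here. Members, gene lists and marker lists were chosen with earlier results of these data known. No libraries were duplicates. Same-numbered libraries did not deviate together in any pair (correlations -0.19 to 0.0957 over 14 pairs in the knockout experiment, -0.145 to -0.044 over 4 in the antibody experiment), so the numbers do not pair them. Promoter windows are from RefSeq. Protein sequences were not used here. Upstream alignment to transcripts may assign reads wrongly between near-identical genes and between coding and non-coding transcripts of a gene.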

Additional observations from a re-analysis of the deposited data

Results flagged for a closer look

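In 10 of 215 combinations of member and group, 1 library stood apart from the rest of its group, where 1 in 20 (10.75) would by chance. Low libraries were wild-type replicate 1 for Cpt2 (30.9 CPM), antibody replicate 1 for Hadha (156 CPM), and chow replicate 3 for Eci1 (129.9 CPM) and Acaa1a (177 CPM). High libraries were wild-type replicate 2 for Acadvl (102 CPM), IgG replicate 3 for Decr2 (47.6 CPM), antibody replicate 4 for Acsm2 (3102 CPM), wild-type replicate 5 (0.864 CPM) and labelled knockout replicate 2 (3.58 CPM) for Acsm3, and chow replicate 1 for Acot2 (64.2 CPM).

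The change in the labelled knockout against wild type differed from the change with antibody for 19 members by a test of the difference itself. In log2 units the knockout change was smaller by these differences: in mitochondria Cpt1a -0.75, Crat -0.38, Acadvl -0.43, Acadl -0.30, Acadm -0.48, Hadha -0.57 and Etfdh -1.01. In peroxisomes they were Acox3 -0.95, Hsd17b4 -0.46, Decr2 -0.48, Eci2 -0.60, Crot -1.05 and Pex11a -0.52, and elsewhere Cd36 -1.40, Slc27a2 -0.61 and Ppara -1.34. It was larger for Acaa2 (0.73), Acox2 (0.57) and Acaa1a (0.24). The treatments were given in separate experiments, on mice that differed in sex by their Y-linked reads, so the difference cannot be told apart from one between experiments.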

How the results depend on the processing

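The counts of members lower in wild type against chow were 40 to 42 over all alternatives, those lower in the labelled knockout against chow 40 to 42, those higher in the labelled knockout against wild type 34 to 37, and those higher with antibody 36 to 39. Summing the near-identical pairs leaves fewer entries to count, and without that setting the first count was 41 or 42. Upper-quartile scaling moved the median of all genes by 0.23, -0.06, 0.16, -0.16 and 0.16 in log2 units (wild type against chow, labelled knockout against wild type, labelled knockout against chow, antibody, and the difference of effects). With it 1 member was lower in the labelled knockout against wild type (Eci2, -0.14), and 5 had a higher difference of effects. The latter count was 0 with the length offset and 1 to 3 with single libraries left out (1 without wild-type replicate 3, antibody replicate 1 or antibody replicate 3). Members with a lower difference were 11 to 20, and 14 to 24 with single libraries left out. With the replicate block, 42, 35, 42 and 38 members were called in the 4 comparisons within experiments, and 2 had a higher and 14 a lower difference; since the numbers do not pair the libraries, no call lost there says that an effect is weaker.

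Signs turned under upper-quartile scaling for Ppara in wild type against chow (0.038), Slc25a20 (-0.020), Pex11a (-0.042) and Ppargc1a (-0.023) in the labelled knockout against wild type, Acaa1a (-0.048) and Acot2 (-0.074) with antibody, and Decr1 (0.025), Eci1 (0.060), Etfa (0.11) and Acot2 (0.092) in the difference. With the length offset they turned for Pex11a in the labelled knockout against wild type (-0.080), Acox3 against chow (0.17) and Cpt2 in the difference (0.0079), and without mitochondrially encoded genes for Etfa there (0.00040). On protein-coding transcripts they turned for Eci2 (0.053) and Ppargc1a (-0.013) in the labelled knockout against wild type, Crat against chow (0.24), and Acads (0.073), Eci1 (0.097) and Etfa (0.012) in the difference. Leaving out single libraries, Plin2 (-0.069 to 0.051), Ppargc1a (-0.017 to 0.0999) and Pex11a (-0.018 to 0.064) crossed 0 in the labelled knockout against wild type, Ppara (-0.039 to 0.11) against chow, and Acot2 (-0.013 to 0.16) with antibody. In the difference Acaa1b (-0.089 to 0.20), Oxct1 (-0.11 to 0.16), Acsm2 (-0.054 to 0.39), Acot1 (-0.080 to 0.21), Etfa (-0.12 to 0.032), Acot2 (-0.14 to 0.039) and Fabp3 (-0.0047 to 0.13) did. Apart from Acox3 and Crat in the labelled knockout against chow, none of these members was called in that comparison. The cause was not tested. The chow, IgG and antibody groups of 4 libraries limit precision.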
